A study of Mus musculus with 5 samples.

Results

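Reactive astrocyte panel genes are a set of 31 genes that are commonly used to describe how an astrocyte responds to inflammation or injury. They fall into 3 classes, which are 11 general reactive genes, 9 neurotoxic-type genes (often called A1) and 11 protective-type genes (often called A2). Each member was taken as the row whose RefSeq transcript maps to its symbol, and all 31 were found among the 20178 transcripts of the deposited tables. The rule uses names and no measured value, although the set was proposed with earlier results of these data known.

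Astrocytes that meet injury or inflammatory signals become reactive, a state in which they enlarge their intermediate filament skeleton, secrete acute-phase proteins and remodel the surrounding matrix. Factors released by activated microglia, among them interleukin 1 alpha, tumour necrosis factor and complement C1q, are known to induce the neurotoxic-type genes, many of which belong to antigen presentation and interferon responses. Protective-type genes were described after ischaemia and include prostaglandin, sphingolipid and pentraxin genes, while the general genes respond in either setting. The class names come from those earlier settings and were not tested by function in these cultures.

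RNA-seq was carried out on 5 mouse cultures, with 1 library per condition, so that no difference between conditions could be tested. All cells came from strain ICR and had been passaged 2 times. The VM astrocyte library (ventral midbrain, the region that holds midbrain dopamine neurons) and the Ctx astrocyte library (cortex) were made from untransduced cultures of postnatal day 5 mice, labelled as astrocyte progenitor cells. VM-C and VM-NF are transduced VM cultures of the same age, and the Ctx NPC library was made from neural progenitor cells of E12 embryonic cortex. The question was how the glial transcriptome differs by region and by expression of Nurr1 (Nr4a2) and Foxa2, both transcription factors of midbrain dopamine neurons.

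By their titles VM-C is the mock virus control and VM-NF received Nurr1 and Foxa2, whereas the entries on transduction in the labels give the reverse, and the titles were followed here. Nr4a2 had 81 reads in VM astrocyte, 53 in VM-C, 183 in VM-NF, 106 in Ctx astrocyte and 93 in Ctx NPC. Foxa2 had 68, 15, 216, 1 and 0 reads in the same order, so both genes were highest in the library titled VM-NF. If the transduction entries were right, the values of VM-C and VM-NF would exchange places and each difference of VM-NF against VM-C would change sign. The study's methods place both cDNAs under the CMV promoter, which is not restricted to astrocytes, and use the empty vector as control. They mark the Foxa2 cDNA as rat, although they also call all the inserts mouse genes. How reads of a rat cDNA would be counted here was not tested. The study calls the sequenced VM cells astrocytes. Its methods describe both mixed glial cultures, which hold microglia, and astrocytes freed of microglia by shaking, and do not say which of these procedures gave the sequenced cultures. Neither the number of animals behind a culture nor any pooling of pups is stated in the labels.

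Library totals ranged from 20010818 to 22554835 reads. Levels are given in FPKM (reads scaled to transcript length and library total) and summed marker levels in CPM (reads scaled to library total). Of 10 astrocyte markers 9 exceeded 1 FPKM in every library, Ctx NPC included, so their presence did not set the libraries labelled as astrocytes apart. Their sum was lowest in VM-C (1183 CPM) and highest in Ctx NPC (4682 CPM), and Gjb6 was close to 0 in each library. Microglial markers (11 of 12 found) summed to 360 CPM in VM astrocyte, 1235 in VM-C, 277 in VM-NF, 134 in Ctx astrocyte and 27.0 in Ctx NPC. None of these 11 was at 0 in the astrocyte libraries, and Trem2 and Fcgr3 were at 0 in Ctx NPC. The presence of neural progenitor markers did not set the Ctx NPC library apart either, since 4 of 5 exceeded 1 FPKM in every library. Their sum was 1304 CPM in Ctx NPC against 2165 CPM in VM-C, where Nes was highest (318 FPKM, against 109 in Ctx NPC). By level, however, Sox2, Pax6, Sox1 and Hes5 were each highest in Ctx NPC. Sox1 was at 12.8 FPKM there and at 2.15 to 5.26 FPKM elsewhere. Hes5 was at 41.1 FPKM there and below 1 FPKM elsewhere. The 7 oligodendrocyte markers summed to 7486 CPM in Ctx NPC and to 214 to 414 CPM in the other libraries, so the name Ctx NPC is used here only as the label of that library. In bulk samples such as these, fewer cells of a type and less RNA per cell cannot be told apart.

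The members together took 1.35% of all reads in VM astrocyte, 1.57% in VM-C, 1.17% in VM-NF, 1.82% in Ctx astrocyte and 1.22% in Ctx NPC. Of the 31 members, 30 exceeded 1 FPKM in at least 1 library. Slc10a6, a transporter of sulphated steroids, did not, with 1 to 25 reads per library and levels from 0.02 to 0.58 FPKM. A difference is given below as the log2 ratio of reads scaled to library totals with 0.5 reads added, and a member was counted as higher or lower where it differed at least 2-fold and exceeded 1 FPKM in at least 1 of the 2 libraries. Brackets hold the exact (Clopper-Pearson) 95% interval, which covers counting error only, since reads are not independent molecules and no replicate culture exists.

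Promoters are shown for Lcn2, a widely used secreted marker of reactive astrocytes, and for the gene of each class with the greatest difference between VM libraries, except that Cd14 differed more than Ptx3 and is not shown. They run from 250 bases before the start of transcription to 25 bases after it, 5′ to 3′ on the gene's strand, and come from RefSeq (GRCm38.p6). Capitals mark matches to the NF-kB site.
Lcn2 (chr2:32387715-32387989, minus strand): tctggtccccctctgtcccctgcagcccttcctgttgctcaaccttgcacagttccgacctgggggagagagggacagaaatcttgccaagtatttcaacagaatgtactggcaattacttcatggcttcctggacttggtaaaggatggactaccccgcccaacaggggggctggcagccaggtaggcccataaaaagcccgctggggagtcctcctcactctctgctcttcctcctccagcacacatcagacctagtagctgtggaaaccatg
Timp1 (chrX:20869916-20870190, plus strand): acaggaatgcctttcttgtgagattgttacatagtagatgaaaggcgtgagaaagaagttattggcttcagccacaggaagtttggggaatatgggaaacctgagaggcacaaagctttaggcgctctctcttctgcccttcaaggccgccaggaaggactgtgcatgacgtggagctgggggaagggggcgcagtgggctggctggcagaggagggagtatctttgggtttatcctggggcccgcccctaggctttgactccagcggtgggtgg
Srgn (chr10:62527421-62527695, minus strand, the first of 2 starts): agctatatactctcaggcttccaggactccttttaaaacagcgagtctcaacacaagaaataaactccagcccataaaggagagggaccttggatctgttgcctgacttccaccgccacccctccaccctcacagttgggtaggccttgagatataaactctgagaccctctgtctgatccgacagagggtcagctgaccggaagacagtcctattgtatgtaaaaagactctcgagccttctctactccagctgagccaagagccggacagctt
Ptx3 (chr3:66219637-66219911, plus strand): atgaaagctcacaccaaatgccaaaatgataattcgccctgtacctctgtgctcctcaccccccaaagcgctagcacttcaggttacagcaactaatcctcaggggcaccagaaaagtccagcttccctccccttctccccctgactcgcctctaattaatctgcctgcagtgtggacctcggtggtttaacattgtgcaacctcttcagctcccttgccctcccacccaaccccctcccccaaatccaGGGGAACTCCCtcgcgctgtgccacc
Ptx3 held 2 overlapping NF-kB matches that span bases -1 to 10 around its start, and the windows of Lcn2, Timp1 and Srgn held none of the 4 motifs searched.

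The search covered both strands of 300 bases at the first listed start of each of the 27 members with an entry. Further starts of a member were not searched, whereas the shares of all promoters count every listed start. The STAT site TTCNNNGAA was present in the promoters of 5 members (Steap4, Gfap, Psmb8, Tgm1 and Emp1) and in 8.30% of all 32851 promoters. The NF-kB site was present in 7 members (Steap4, Vim, H2-D1, Gbp2, Ptx3, Sphk1 and Tm4sf1) and in 8.46% of promoters. The AP-1 site TGANTCA was found in Cp, Gbp2 and Emp1 and in 7.81% of promoters, and the interferon response core GAAANNGAA in H2-T23, Gbp2, Tgm1 and Tm4sf1 and in 8.56%. A match describes these letters only, and says nothing of binding.

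General reactive genes had a median level of 163 FPKM in VM astrocyte, 164 in VM-C, 145 in VM-NF, 175 in Ctx astrocyte and 83.1 in Ctx NPC. Vim and Gfap encode the intermediate filaments of astrocytes. Vim was at 3027 FPKM in VM astrocyte, 2807 in VM-C, 2577 in VM-NF, 4180 in Ctx astrocyte and 1868 in Ctx NPC, a spread of 2.24-fold and the narrowest but 1 of the 31 members. Gfap was at 154, 180, 77.8, 476 and 2246 FPKM in the same order of libraries, a spread of 28.9-fold. Gfap was thus highest in Ctx NPC and lowest in VM-NF, and the other filament gene showed a different order.

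Lcn2 encodes lipocalin 2, an iron-siderophore carrier secreted in inflammation. It was at 1108 FPKM in VM astrocyte, 2172 in VM-C, 852 in VM-NF, 3420 in Ctx astrocyte and 122 in Ctx NPC. Serpina3n, a secreted serine protease inhibitor, was at 225, 164, 145, 539 and 161 FPKM in the same order. Each had its highest level in Ctx astrocyte, and Serpina3n varied less among the other 4 libraries than Lcn2 did. Serpina3n belongs to a cluster of near-identical genes, so its reads are uncertain.

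Timp1, an inhibitor of matrix metalloproteinases, was at 447 FPKM in VM astrocyte, 2108 in VM-C, 349 in VM-NF, 404 in Ctx astrocyte and 33.1 in Ctx NPC. Cp, the copper-binding ferroxidase ceruloplasmin, was at 187, 79.4, 194, 107 and 8.16 FPKM in the same order. Timp1 was highest in VM-C, where Cp was at its lowest among the astrocyte libraries. Cd44, the hyaluronan receptor, was at 163, 233, 181, 175 and 83.1 FPKM, again highest in VM-C but within 1.43-fold between VM-C and VM astrocyte.

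Steap4, a metalloreductase of the plasma and endosomal membranes, was at 35.8 FPKM in VM astrocyte, 16.3 in VM-C, 19.3 in VM-NF, 41.4 in Ctx astrocyte and 39.5 in Ctx NPC. S1pr3, a receptor for sphingosine 1-phosphate, was at 42.9, 26.3, 32.1, 39.0 and 133 FPKM in the same order. Both were lower in each transduced VM library than in the untransduced ones. Hspb1, a small heat shock protein, was at 104, 89.9, 89.0, 88.3 and 10.2 FPKM, nearly level over the 4 astrocyte libraries. Aspg, an asparaginase, was at 3.91, 1.79, 3.42, 1.17 and 1.84 FPKM, the lowest levels of the class.

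Neurotoxic-type genes had a median level of 44.2 FPKM in VM astrocyte, 50.3 in VM-C, 35.8 in VM-NF, 20.8 in Ctx astrocyte and 2.08 in Ctx NPC. The class holds genes of antigen presentation. H2-D1, a classical class I histocompatibility heavy chain, was at 326, 395, 300, 341 and 56.3 FPKM in the same order. H2-T23, which encodes the non-classical class I molecule Qa-1, was at 91.4, 110, 73.5, 53.2 and 2.08 FPKM. Psmb8, a subunit of the immunoproteasome, was at 74.3, 81.3, 59.7, 60.2 and 8.42 FPKM. All of these were highest in VM-C and lowest in Ctx NPC, but among the 3 VM libraries they stayed within 2-fold. Class I genes share long stretches of sequence, so reads of H2-D1 and H2-T23 may be split among relatives.

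The interferon-inducible members did not follow a single order. Iigp1, an immunity-related GTPase, was at 7.25 FPKM in VM astrocyte, 9.13 in VM-C, 3.95 in VM-NF, 1.42 in Ctx astrocyte and 0.05 in Ctx NPC, the last from 3 reads. Gbp2, a guanylate-binding protein, was at 44.2, 26.0, 35.8, 20.8 and 18.6 FPKM in the same order. Iigp1 was thus highest in VM-C and Gbp2 in VM astrocyte, and both have near-identical relatives that may share their reads.

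Srgn encodes serglycin, the proteoglycan core of secretory granules in blood cells. It was at 29.7 FPKM in VM astrocyte, 75.9 in VM-C, 17.9 in VM-NF, 4.26 in Ctx astrocyte and 1.01 in Ctx NPC, a spread of 75.2-fold. Fbln5, an extracellular matrix protein of elastic fibres, was at 10.8, 2.89, 11.0, 4.29 and 1.44 FPKM in the same order. Srgn was highest and Fbln5 lowest in VM-C among the VM libraries. Amigo2, a cell adhesion protein, was at 8.43, 2.95, 7.70, 2.05 and 1.36 FPKM, and like Fbln5 was lower in VM-C than in the other VM libraries. Ggta1, an enzyme that adds terminal galactose to glycans, was at 69.3, 50.3, 75.9, 74.1 and 34.0 FPKM, the narrowest spread of the 31 members at 2.23-fold.

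Protective-type genes had a median level of 67.0 FPKM in VM astrocyte, 84.3 in VM-C, 62.4 in VM-NF, 20.5 in Ctx astrocyte and 17.1 in Ctx NPC. Enzymes of lipid mediators belong here. Ptgs2, the inducible cyclooxygenase of prostaglandin synthesis, was at 59.8, 117, 62.4, 14.8 and 14.4 FPKM in the same order. Sphk1, which makes sphingosine 1-phosphate, was at 12.2, 20.4, 12.2, 18.4 and 3.18 FPKM. Both were highest in VM-C, and Ptgs2 alone was far lower in Ctx astrocyte than in any VM library.

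Cd14, the co-receptor for bacterial lipopolysaccharide that myeloid cells carry at high level, was at 67.0 FPKM in VM astrocyte, 242 in VM-C, 39.3 in VM-NF, 16.7 in Ctx astrocyte and 34.1 in Ctx NPC. Ptx3, a secreted pentraxin whose promoter is shown above, was at 285, 84.3, 254, 432 and 47.4 FPKM in the same order. Among the 4 astrocyte libraries Cd14 was highest and Ptx3 lowest in VM-C, and Ctx astrocyte had the reverse. Tgm1, a protein cross-linking transglutaminase, was at 28.0, 74.4, 24.9, 33.0 and 47.7 FPKM, highest in VM-C and next highest in Ctx NPC.

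Emp1, a tetraspan membrane protein, was at 69.3 FPKM in VM astrocyte, 177 in VM-C, 65.3 in VM-NF, 36.2 in Ctx astrocyte and 16.5 in Ctx NPC. Tm4sf1, another tetraspan membrane protein, was at 134, 171, 98.2, 20.5 and 6.02 FPKM in the same order. S100a10, the annexin A2 partner that binds plasminogen, was at 426, 358, 324, 109 and 18.5 FPKM. All of these were higher in each VM library than in either cortical one. Cd109, a membrane-anchored protein of the alpha-2-macroglobulin family, was at 75.7, 57.5, 82.2, 87.7 and 17.1 FPKM, and B3gnt5, a glycosyltransferase of lactosylceramide chains, at 5.26, 4.54, 5.24, 5.53 and 17.9 FPKM. Cd109 was lowest in Ctx NPC, where B3gnt5 was highest.

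**Figure D1:**
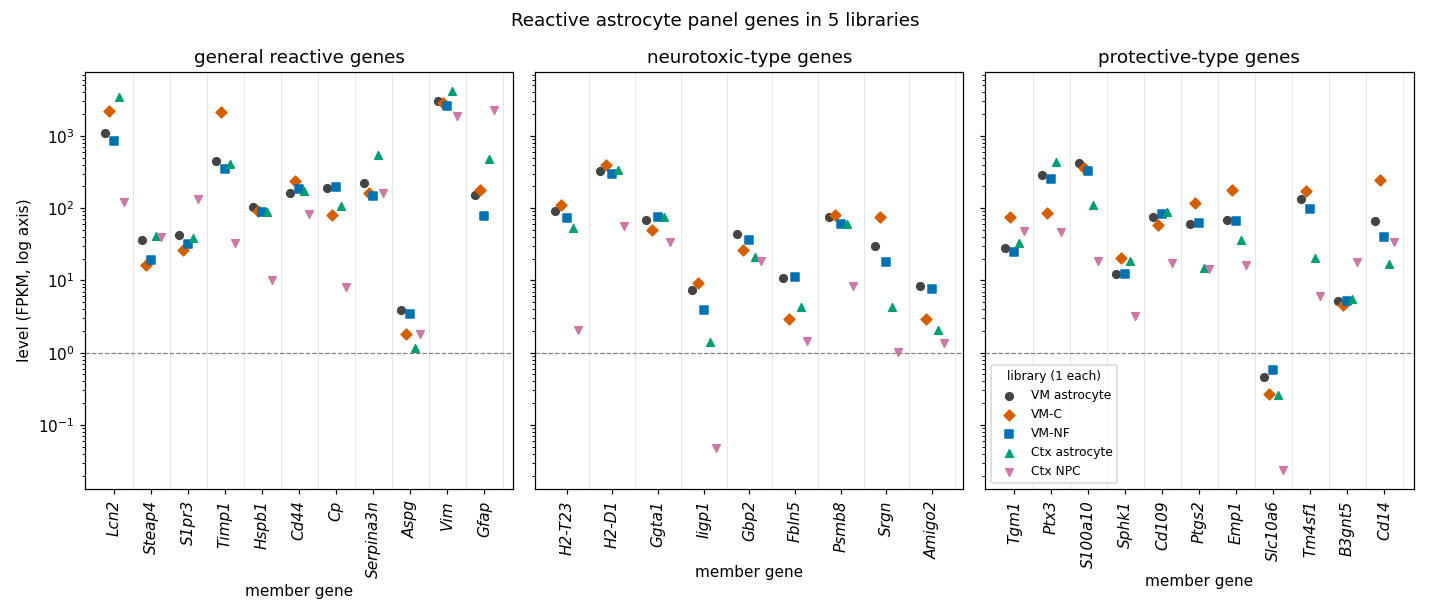
Level of each member in the 5 libraries, in FPKM on a log axis, with 1 point per library and 1 panel per class (the dashed line is at 1 FPKM). Vim lies above 1868 FPKM in every library, Slc10a6 lies below the line in each, and the Ctx NPC points of most members are the lowest.

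Of the 30 members above 1 FPKM in some library, 13 had their highest level in VM-C (general Timp1 and Cd44, neurotoxic-type H2-T23, H2-D1, Iigp1, Psmb8 and Srgn, and protective-type Tgm1, Sphk1, Ptgs2, Emp1, Tm4sf1 and Cd14), where 19.0% of 13298 transcripts had theirs. Ctx astrocyte held the highest level of 6 (16.1% of transcripts), VM astrocyte of 5 (9.96%), and VM-NF of 3 (12%). Ctx NPC held the highest level of only S1pr3, Gfap and B3gnt5, whereas 43.0% of transcripts were highest there.

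The VM-C culture was then compared with the untransduced VM astrocyte culture. Among the 30 members that passed the filter, 5 were at least 2-fold higher in VM-C, against 7.3% of all 12703 transcripts, and 6 were at least 2-fold lower, against 8.48%. The median difference was -0.22 for the general, 0.13 for the neurotoxic-type and 0.55 for the protective-type genes, and -0.01 for all transcripts. No class moved as a whole, since each held genes on both sides.

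The 5 members higher in VM-C came from all 3 classes. Timp1 had a log2 difference of 2.24 [2.20, 2.27], which is 4.72-fold. Cd14 was 3.61-fold higher, at 1.85 [1.79, 1.92]. These secreted and surface proteins were followed by Tgm1 at 1.41 [1.33, 1.49], and by Srgn at 1.35 [1.22, 1.49] and Emp1 at 1.35 [1.30, 1.40]. Lcn2 and Ptgs2 lay just under the 2-fold limit, both at 0.97, and passed it under DESeq2's scaling, which made the count 7.

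The 6 members lower in VM-C were likewise spread over the classes. Fbln5 was 3.72-fold lower, at -1.89 [-2.06, -1.73], and Ptx3 was 3.38-fold lower, at -1.75 [-1.81, -1.70]. Amigo2 followed at -1.51 [-1.76, -1.27]. Cp (-1.24), Steap4 (-1.14) and Aspg (-1.12), all general reactive genes, completed the set. Aspg rests on 229 reads in VM astrocyte and 111 in VM-C, and its interval of -1.47 to -0.79 includes values under 2-fold.

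Markers of several cell types moved with this comparison. Of the 10 microglial markers that passed the filter, 9 were at least 2-fold higher in VM-C, with a median log2 difference of 2.06. Oligodendrocyte markers were higher in 5 of 6, with a median of 2.00, those of oligodendrocyte precursors in 3 of 5, with a median of 1.23, and those of neurons in 2 of 3. Ependymal markers were lower in 3 of 3, with a median of -2.51. Fibroblast and mural markers were lower in 2 of 6, with 3 above 0 (Dcn, Lum and Pdgfrb) and a median of -0.19. Col1a1 (-1.03) and Col1a2 (-0.92) held most reads of that list. Fibroblast and mural markers summed to 2171 CPM in VM astrocyte and 1282 CPM in VM-C, and ependymal markers to 313 and 54.3 CPM. Their part in the members' differences was not tested. Without the 7 members that myeloid cells are also known to express (Cd14, Srgn, Ptgs2, Psmb8, H2-D1, H2-T23 and Gbp2), the median of the neurotoxic-type genes was -0.99 instead of 0.13, that of the protective-type genes was 0.07 instead of 0.55, and 3 members were higher (Timp1, Tgm1 and Emp1). The 4 neurotoxic-type genes left in that median were Ggta1, Iigp1, Fbln5 and Amigo2. The 7 were picked by name, and whether myeloid cells express other members was not tested.

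Genes for secreted inducers of reactive states were compared alongside, from a list of 12 of which 11 passed the filter. In VM-C 8 were at least 2-fold higher than in VM astrocyte, with a median of 1.70, among them Osm at 2.84, Tnf at 2.53, Il1a at 2.17 and C1qa at 1.70. Cntf, ciliary neurotrophic factor, was lower at -2.95. Of 18 genes for their receptors and transducers, 2 were higher and 1 was lower, the extremes being Tnfrsf1b at 1.76 and Irf1 at -1.03. Among the other genes of the same panel, 5 of 6 passed the filter, with Clcf1 higher at 1.83 and Cxcl10 lower at -1.93. Microglial markers had a median of 2.06 in the same comparison, and the cell source of the inducer reads was not tested.

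Between VM-NF and the untransduced VM astrocyte culture, none of the 30 members differed 2-fold in either direction. The share of all 12428 transcripts was 0.322% higher and 0.668% lower, so that a count of 0 is near the background. The class medians were -0.36 for general, -0.30 for neurotoxic-type and -0.12 for protective-type genes, and -0.05 for all transcripts. In all, 23 members were below 0 and 7 were above, while 57.5% of all transcripts were below 0.

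The member closest to 2-fold in VM-NF was Gfap, at -0.98 [-1.03, -0.93], from 8923 reads in VM astrocyte and 4316 in VM-NF. Steap4 was at -0.89 [-0.99, -0.79] and Iigp1 at -0.88 [-1.10, -0.65]. After these came Cd14 at -0.77, Srgn at -0.73 and Serpina3n at -0.63. The values above 0 were small, and the greatest was Cd44 at 0.15. Microglial markers had a median of -0.44 with all 9 that passed below 0, and 1 of them (Aif1) was at least 2-fold lower. Oligodendrocyte markers were at least 2-fold lower in 3 of 5, with a median of -1.17, and no marker of oligodendrocyte precursors, astrocytes, ependyma, fibroblasts or mural cells that passed differed 2-fold. The part of these cell types in the result was not tested. None of the 18 receptor and transducer genes and none of the other panel genes differed 2-fold. Of the inducers, Il1b was lower at -1.68, from 65 reads in VM astrocyte and 19 in VM-NF. Tnf was lower at -1.04, from 65 and 30 reads, and both were below 1 FPKM in VM-NF.

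VM-NF and VM-C, the pair of transduced cultures, differed more. Of 30 members, 4 were at least 2-fold higher in VM-NF, against 9.53% of 12701 transcripts, and 8 were at least 2-fold lower, against 9.73%. This comparison shares its libraries with the previous ones and adds no independent evidence. The class medians were -0.12 for general, -0.40 for neurotoxic-type and -0.77 for protective-type genes, beside -0.02 for all transcripts.

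The lower members in VM-NF were led by Cd14 at -2.62 [-2.71, -2.54] and Timp1 at -2.59 [-2.63, -2.55], which are 6.16-fold and 6.03-fold. Srgn was 4.23-fold lower, at -2.08 [-2.25, -1.91]. Tgm1 (-1.58), Emp1 (-1.44), Lcn2 (-1.35), Gfap (-1.21) and Iigp1 (-1.21) made up the rest. The 4 higher members were Fbln5 at 1.92 [1.76, 2.09], Ptx3 at 1.59 [1.54, 1.64], Amigo2 at 1.38 [1.14, 1.64] and Cp at 1.29 [1.25, 1.33].

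Of the 10 microglial markers that passed here, 9 were at least 2-fold lower in VM-NF, with a median of -2.66. Oligodendrocyte markers were lower in 5 of 6, with a median of -3.37, and those of oligodendrocyte precursors in 4 of 5, with a median of -1.36. Of 9 astrocyte markers, Aldh1l1 was higher at 1.62 and S100b lower at -1.58, with a median of 0.19. Neuronal markers were higher in 1 of 4 and lower in 2. Ependymal markers were higher in 3 of 3, with a median of 2.45. Fibroblast and mural markers were higher in 3 of 6, while the other 3 were below 0, with a median of 0.26. The part of these cell types in the result was not tested. Without the 7 members listed for myeloid cells, the median of the neurotoxic-type genes was 0.99 instead of -0.40. That of the protective-type genes was -0.44 instead of -0.77. The inducers showed 9 of 11 lower in VM-NF, with a median of -2.17, and Cntf alone was higher, at 2.86.

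**Figure D2:**
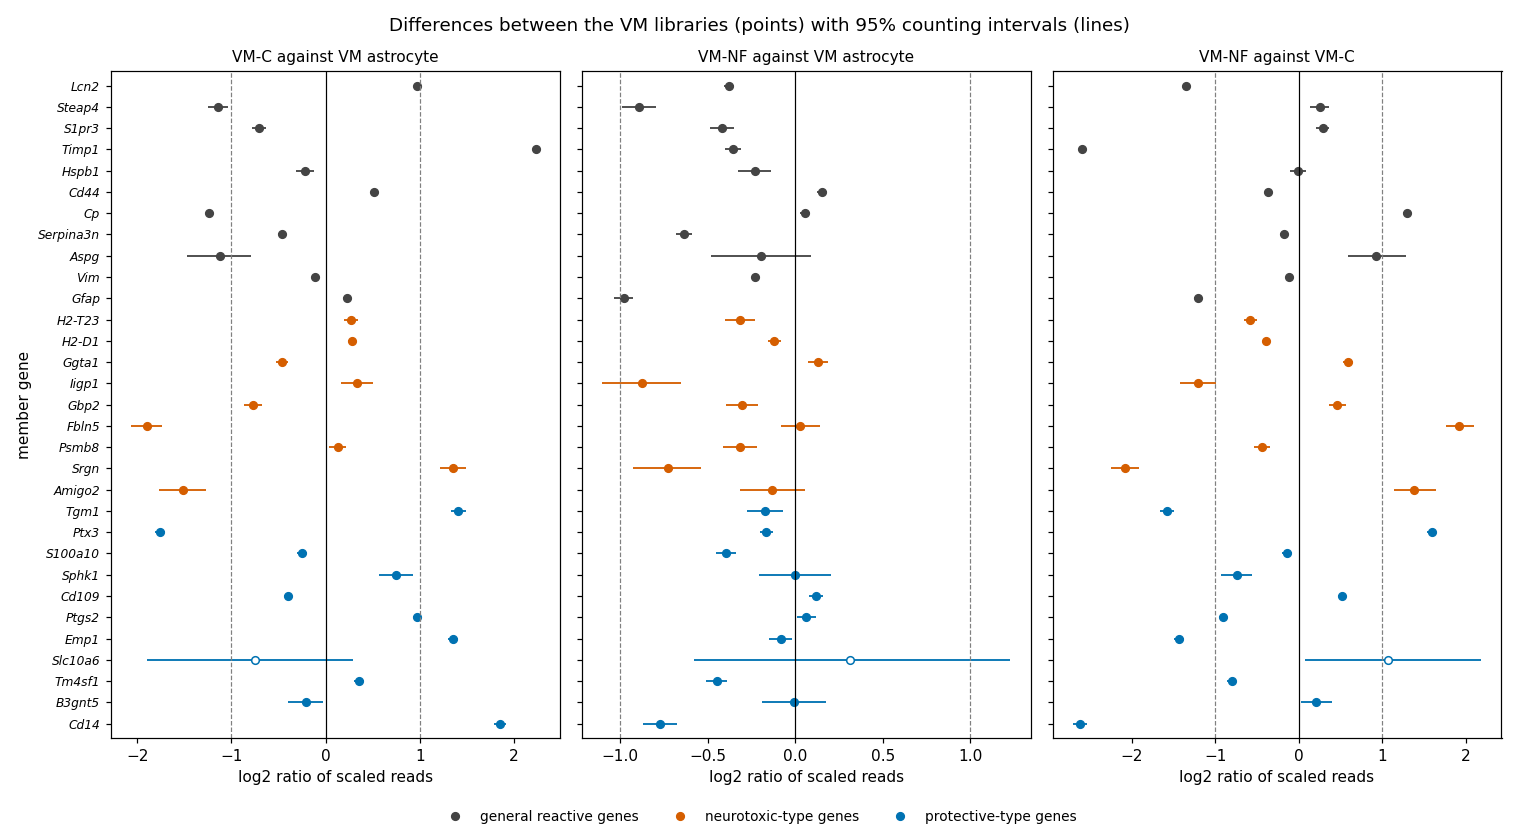
Log2 ratio of scaled reads for each member in the 3 comparisons among the VM libraries, with lines for the 95% counting interval, dashed lines at 2-fold and an open point for Slc10a6, which failed the filter. In the middle panel, whose axis is narrower, all members that passed lie inside the dashed lines, while Timp1 lies farthest out in the left panel and Cd14 and Timp1 in the right.

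The 2 brain regions were compared in the untransduced cultures. In Ctx astrocyte 3 of 30 members were at least 2-fold higher than in VM astrocyte, against 4.49% of 12553 transcripts, and 10 were at least 2-fold lower, against 9.89%. The classes differed in their counts. General reactive genes had 3 higher and 1 lower with a median of 0.10, neurotoxic-type genes had 0 higher and 5 lower with a median of -1.09, and protective-type genes had 0 higher and 4 lower with a median of -0.43. The median of all transcripts was -0.05.

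The higher members in the cortical culture were Gfap at 1.63 [1.60, 1.67], Lcn2 at 1.63 [1.60, 1.65] and Serpina3n at 1.26 [1.23, 1.29]. Aspg was the only general gene at least 2-fold lower, at -1.73 [-2.15, -1.35], from 69 reads in Ctx astrocyte. Of the neurotoxic-type genes, Srgn was 6.94-fold lower at -2.79 [-3.15, -2.47], and Iigp1 was 5.09-fold lower at -2.35 [-2.69, -2.03]. Amigo2 (-2.04), Fbln5 (-1.33) and Gbp2 (-1.09) followed. H2-T23 was lower without reaching 2-fold, at -0.78 [-0.87, -0.69]. H2-D1 (0.07), Ggta1 (0.10) and Psmb8 (-0.30) were nearly level between the regions.

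Among the protective-type genes Tm4sf1 was 6.54-fold lower in the cortical culture, at -2.71 [-2.82, -2.60]. Ptgs2 (-2.01), Cd14 (-2.00) and S100a10 (-1.97) were each about as far apart from VM astrocyte. Ptx3 at 0.60 [0.57, 0.64] and Sphk1 at 0.60 [0.41, 0.78] leaned the other way without reaching 2-fold. Emp1 lay between these, at -0.93 [-1.01, -0.86]. The other members of the class that passed were therefore split between genes far below and genes slightly above the VM level.

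Microglial markers were also lower in Ctx astrocyte, 8 of 9 by at least 2-fold with a median of -1.64, and fibroblast and mural markers summed to 795 CPM against 2171 CPM, with 3 of 6 lower. Oligodendrocyte markers were lower in 3 of 5, with a median of -1.19. Astrocyte markers were at least 2-fold higher in 5 of 9, with a median of 1.17 and a sum of 3115 CPM against 1602 CPM. Their part in the result was not tested. Without the members listed for myeloid cells, 6 members were lower instead of 10. The median of the neurotoxic-type genes was then -1.68, and that of the protective-type genes turned to 0.14. Of the inducers 9 of 11 were lower, with a median of -1.62, and Cntf was higher at 1.06. Of the 18 receptor and transducer genes, Il1rap was higher at 1.03 and Tnfrsf1b lower at -2.07, and of the other panel genes Clcf1 was lower at -1.10.

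The Ctx NPC library was compared with Ctx astrocyte, which differs from it in age as well as in labelled cell type. In Ctx NPC 4 of 30 members were at least 2-fold higher than in Ctx astrocyte, against 20.1% of 12623 transcripts, and 20 were at least 2-fold lower, against 17.9%. The class medians were -1.16 for general, -2.05 for neurotoxic-type and -1.45 for protective-type genes. The median of all transcripts was 0.19 with library totals and 0.01 with TMM scaling, so that the members' values lie about that much lower under the latter.

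The lower members in Ctx NPC were 7 general, 7 neurotoxic-type and 6 protective-type genes. Lcn2 was 27.9-fold lower, at -4.80 [-4.87, -4.74]. H2-T23 was 25.4-fold lower at -4.67 [-5.09, -4.29]. Iigp1 had a like value of -4.68 with a far wider interval, from -7.19 to -3.29, since it had 95 reads in Ctx astrocyte and 3 in Ctx NPC. The acute-phase and matrix genes Cp (-3.71), Timp1 (-3.61) and Ptx3 (-3.19) came next, with the heat shock gene Hspb1 at -3.11. Psmb8 (-2.84), H2-D1 (-2.60), S100a10 (-2.55), Sphk1 (-2.53), Cd109 (-2.36) and Srgn (-2.05) lay between 4-fold and 8-fold. Tm4sf1, Serpina3n, Fbln5, Vim, Emp1, Ggta1 and Cd44 ranged from -1.77 to -1.07.

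The higher members in Ctx NPC were Gfap at 2.24 [2.22, 2.26], S1pr3 at 1.77 [1.72, 1.83], B3gnt5 at 1.69 [1.55, 1.84] and Cd14 at 1.03 [0.88, 1.17]. Cd14 fell short of 2-fold under each of the 3 other scalings, which left 3. Steap4 (-0.07), Ptgs2 (-0.04), Gbp2 (-0.16), Tgm1 (0.53), Amigo2 (-0.59) and Aspg (0.65) differed by less than 2-fold.

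All 7 microglial markers that passed were at least 2-fold lower in Ctx NPC, with a median of -6.07, while astrocyte markers summed to 4682 CPM there against 3115 CPM in Ctx astrocyte, with 2 of 9 higher and 1 lower. Oligodendrocyte markers were higher in 7 of 7, with a median of 7.25, those of oligodendrocyte precursors in 4 of 5 and those of neurons in 5 of 5. Ependymal markers were lower in 3 of 3. Fibroblast and mural markers were lower in 4 of 6 and higher in 1 (Lum at 2.04). The part of these cell types in the result was not tested. Without the members listed for myeloid cells, the medians were -1.35 for neurotoxic-type and -2.06 for protective-type genes. All 8 inducers that passed were lower as well, with a median of -4.06. Of 18 receptor and transducer genes 6 were lower and 0 higher, and Serping1, a complement inhibitor of the same panel, was lower at -2.62.

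**Figure D3:**
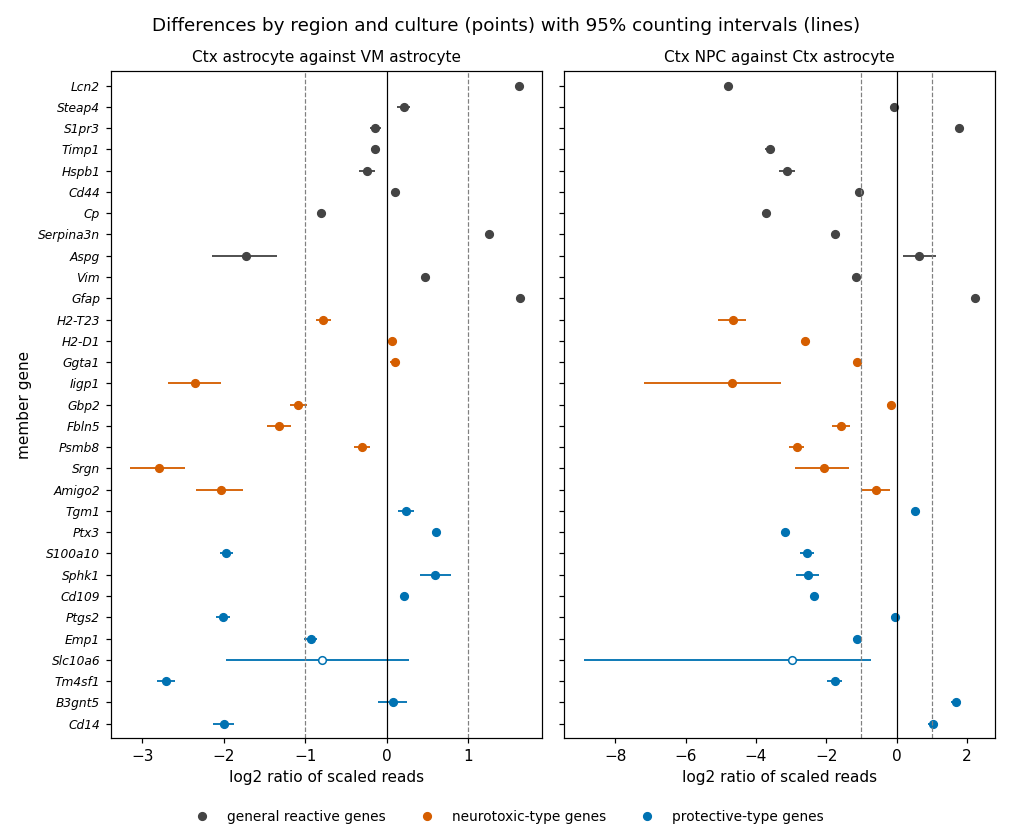
Log2 ratio of scaled reads for each member in Ctx astrocyte against VM astrocyte and in Ctx NPC against Ctx astrocyte, with lines for the 95% counting interval, dashed lines at 2-fold and an open point for Slc10a6. In the left panel 3 general reactive genes lie beyond 2-fold on the right, and in the right panel 20 of the 30 members that passed lie beyond 2-fold on the left.

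**Figure D4:**
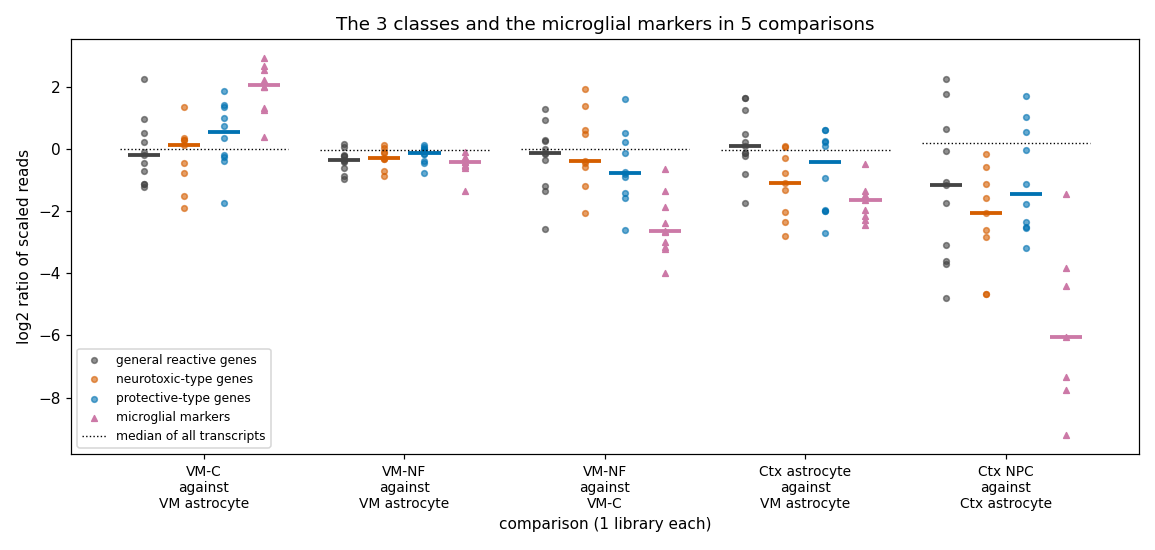
Log2 ratios of the members that passed the filter by class, beside the microglial markers, in each of the 5 comparisons (points are genes, thick bars are medians over genes, and the dotted line is the median of all transcripts). In VM-C against VM astrocyte the microglial markers centre at 2.06 and the classes at -0.22, 0.13 and 0.55, and in Ctx NPC against Ctx astrocyte all 3 class medians are below -1.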

How the data were processed

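RNA-seq was processed by the authors, who trimmed reads below quality 20 and mapped them with STAR. The study's methods name GRCm38/mm10, whereas the submitters' processing notes name mm9 and list HTSeq and DESeq, so no coordinate was taken from the files. The deposited tables give read counts, transcript length and FPKM per RefSeq transcript (20178 rows, without the row of totals). FPKM equalled counts over length and library total when recomputed. Symbols were paired through RefSeq (19997 rows) or GENCODE M21 (96 rows, Sphk1 included), and 85 rows were unpaired. The strand setting is not given in the sources used here.

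Counts were scaled to library totals in Python 3.11.15 (pandas 2.3.3, scipy 1.17.1), and the computation was tested on simulated data. With 1 library per group there was no test. Every member was named, with all 5 values where it differed 2-fold in any comparison. Members and lists were chosen with earlier results of these data known. Alternatives were edgeR 4.0.16 TMM, DESeq2 1.42.0 size factors, upper-quartile scaling, 5 added reads, no filter, a filter in both libraries, a 2.6-fold limit and leaving out 7 members.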

Additional observations from a re-analysis of the deposited data

How the results depend on the processing

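Of 185 alternative values for 25 results, 156 stayed within the limits set for them and 29 moved. The limits were a similar count of members, or a class median inside the median limits of its genes' counting intervals. Only a class median of at least 2-fold could be called reversed by the rule used, and 0 were. Leaving out the 7 members listed for myeloid cells moved most, by the loss of those genes. It changed the sign of smaller medians. These were the neurotoxic-type medians in VM-C against VM astrocyte and VM-NF against VM-C, and the protective-type median in Ctx astrocyte against VM astrocyte. In VM-C against VM astrocyte it gave 3 members higher and medians of -0.99 (neurotoxic-type) and 0.071 (protective-type). In VM-NF it gave a neurotoxic-type median of -0.051 against VM astrocyte, and 0.99 and a protective-type median of -0.44 against VM-C. In Ctx astrocyte against VM astrocyte it gave 6 members lower and medians of -1.68 and 0.14, and in Ctx NPC against Ctx astrocyte -1.35 and -2.06. A 2.6-fold limit left 3 members higher and 3 lower in VM-C against VM astrocyte and 5 lower in VM-NF against VM-C. With no filter Slc10a6 entered, and the protective-type median was 0.35 in VM-C against VM astrocyte, -0.79 in Ctx astrocyte and -1.77 in Ctx NPC.

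Scaling moved the general median to -0.30 (TMM) in VM-NF against VM astrocyte, to -0.087 (TMM) and -0.15 (DESeq2) in VM-NF against VM-C, and to 0.16 (TMM), 0.15 (DESeq2) and 0.13 (upper quartile) in Ctx astrocyte against VM astrocyte. In Ctx NPC against Ctx astrocyte it gave -1.35, -1.34 and -1.33 for general genes and -1.63, -1.63 and -1.62 for protective-type genes. Under TMM 44.7% of the transcripts called in VM-NF against VM astrocyte were higher, against 32.5% with library totals, and no member was called under either. No paired analysis was possible because each group has 1 library. Differences under 2-fold in genes with few reads were not all resolved at this depth. Slc10a6 at -0.75 [-1.89, 0.29] in VM-C against VM astrocyte had an interval that included no difference. So did Aspg at -0.19 [-0.48, 0.09] in VM-NF against VM astrocyte. In Ctx NPC against Ctx astrocyte, Aspg at 0.65 [0.19, 1.11] excluded no difference but included 2-fold.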
